A study of Homo sapiens with 5 samples.

Results

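Protein phosphatases that act on tyrosine were followed in T84, a line from a human colon carcinoma that forms a chloride-secreting epithelium in culture. The members were all genes whose symbol starts with PTPN, PTPR, PTP4A or DUSP and that had a probe set naming no other gene. Each needed an intensity above 20 on at least 1 array, and the probe set with the highest mean over the 5 arrays stood for its gene. Of 41 such genes, 34 passed, out of 3784 genes above 20 and 4961 measured genes in all. They comprised 14 receptor-type phosphatases (PTPR), 10 non-receptor phosphatases (PTPN), 2 PTP4A phosphatases and 8 dual-specificity phosphatases (DUSP).

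Affymetrix arrays were hybridised with RNA from cultures kept without interferon-gamma (IFN-gamma; 1 array, described as a pooled control) or with IFN-gamma at 1000 U/ml for 6 h (2 arrays) or 18 h (2 arrays). All arrays came from the same cell line, and no other agent or genetic change is given. The treated arrays are called biological replicates without a statement of how the cultures were kept apart, so a p-value here measures no more than the spread among the arrays, part of which may be technical. Intensities are in arbitrary units, can be negative, and values under 20 were set to 20 before log2(value + 1) was taken. Intensities of different probe sets were not read as relative amounts of RNA. Sums over lists, ranges and the words bright and dim describe intensities only.

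Kinases add phosphate to tyrosine, and the classical PTPs remove it through a catalytic cysteine. Receptor-type PTPs cross the plasma membrane and many carry adhesion-molecule modules outside the cell, whereas non-receptor PTPs are directed to the endoplasmic reticulum, the cytoskeleton or docking proteins. PTP4A phosphatases are small prenylated membrane proteins. Most of the DUSPs measured are MAP kinase phosphatases, which remove phosphate from both the threonine and the tyrosine of the MAP kinase activation loop, and several of them are transcribed in response to the kinases that they shut off. In the IFN-gamma pathway, PTPN2, PTPN6 and PTPN11 are known to act on JAK kinases and STAT factors.

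The label of each array was read against 4 textbook targets of IFN-gamma, CXCL10, IRF1, TAP1 and GBP1. Their summed intensity was 4500 on the untreated-labelled array, 124 and 3632 after 6 h (replicates 1 and 2), and 3991 and 4763 after 18 h. The untreated-labelled array thus carried interferon-induced genes at the level of treated cells, and the 6 h array of replicate 1 carried them at or near background, against their labels. Whether these arrays were exchanged was not tested, and nothing in the labels settles it. Both were kept in their labelled groups, and the values of the main members are given on every array. Every change against untreated rests on the untreated-labelled array and has no version without it, and only 18 h against 6 h can be computed without both arrays. All 13 epithelial markers fixed for T84 cells, among them EPCAM, KRT18 and villin (VIL1), were above 20 on every array.

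Of the 34 members, 19 were above 20 on all 5 arrays, 9 on 2 to 4 arrays and 6 on only 1, against 2452, 972 and 360 of the 3784 genes above 20. The 6 were DUSP2, DUSP8, PTPN9, PTPRB, PTPRH and PTPRZ1. Close to the threshold lay PTPRZ1 (highest array 21), PTPN9 (23), DUSP8 (24) and PTPRO (26) inside it, and PTPRCAP (19), PTPRD (16) and PTPN2 (12) outside it. The genes that never exceeded 20 were these last 3 with PTPN14, PTPN18, PTPRM and DUSP3. PTPN2, the T-cell phosphatase, had 5 on the untreated-labelled array, -6 and 12 after 6 h, and -5 and 1 after 18 h, so no statement on its regulation can be made from this probe set. DUSP3 was the only atypical DUSP measured, and no atypical DUSP is among the members.

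**Figure D1:**
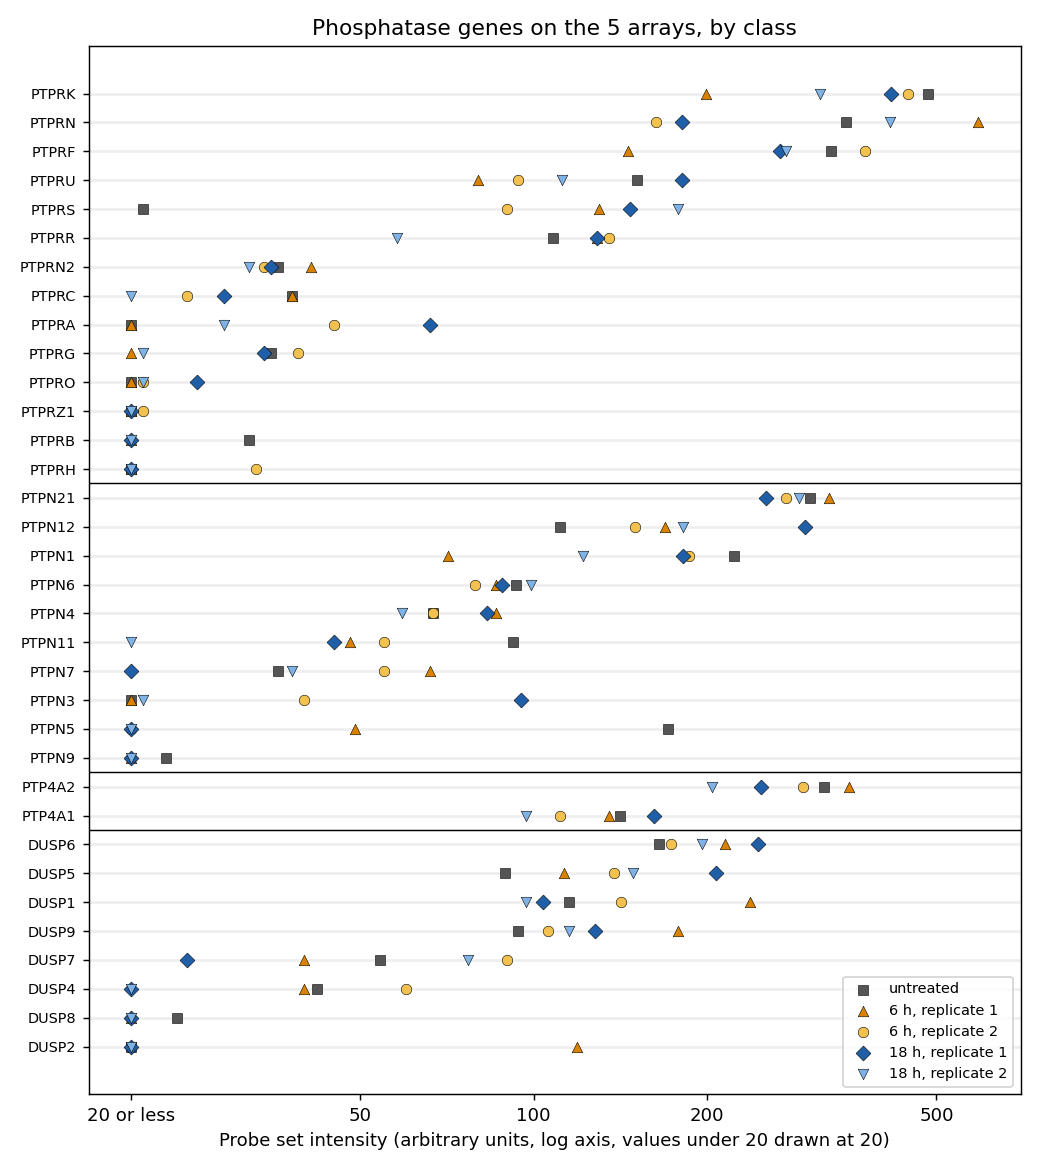
Intensity of each of the 34 phosphatase genes (rows, grouped by class and sorted by mean) on the 5 arrays (symbols), on a log axis in arbitrary units with values under 20 drawn at 20, where symbols overlap. PTPRS is low on the untreated-labelled array alone (21) and PTPN5 is high on it (171), while PTPRK and PTPRF are lowest on the 6 h array of replicate 1 (199 and 146).

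Among the receptor-type phosphatases, PTPRS stood apart. It is a neural and epithelial receptor that binds heparan and chondroitin sulfate chains of the extracellular matrix. Its intensity was 21 on the untreated-labelled array, 130 and 90 after 6 h, and 147 and 178 after 18 h. All 4 treated arrays lay above the untreated-labelled array, and both 18 h arrays lay above both 6 h arrays. The 6 h array of replicate 1, which lacks the interferon response, had the higher value of the pair at 6 h. A second PTPRS probe set was negative on every array (from -289 to -76), so it neither repeats nor opposes the pattern of the first.

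The stretch of 150 bases upstream of the annotated start of transcription is shown for PTPRS and for the other 3 members whose promoter window holds the cyclic AMP response element TGACGTCA, which binds CREB and ATF factors and is a known element of the DUSP1 promoter. Sequences are from RefSeq (GRCh38.p14), and capitals mark the element.
PTPRS (chr19:5340813-5340962, minus strand): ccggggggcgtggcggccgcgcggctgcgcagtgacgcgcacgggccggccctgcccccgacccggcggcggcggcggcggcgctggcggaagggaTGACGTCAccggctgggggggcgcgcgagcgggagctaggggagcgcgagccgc
PTPRU (chr1:29236372-29236521, plus strand): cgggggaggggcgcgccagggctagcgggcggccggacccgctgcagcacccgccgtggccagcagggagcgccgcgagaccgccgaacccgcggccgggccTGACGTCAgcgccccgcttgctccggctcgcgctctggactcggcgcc
DUSP1 (chr5:172771196-172771345, minus strand): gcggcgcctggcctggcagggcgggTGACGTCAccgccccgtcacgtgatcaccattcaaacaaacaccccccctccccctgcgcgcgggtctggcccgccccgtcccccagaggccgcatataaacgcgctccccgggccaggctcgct
DUSP8 (chr11:1572272-1572421, minus strand): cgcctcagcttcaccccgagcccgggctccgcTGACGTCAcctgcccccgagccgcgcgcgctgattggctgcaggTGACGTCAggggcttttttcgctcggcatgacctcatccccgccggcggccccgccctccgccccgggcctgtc
The element begins 54 bases before the start in PTPRS, 48 in PTPRU and 125 in DUSP1, and it occurs at 118 and 74 bases before the start in DUSP8. Of the 34 members, 29 had a window of 300 bases (250 before the start and 50 after it), 46 windows in all because some genes have several starts. The element, which reads the same on both strands, was in 4 of these 46 windows and in 1.85% of 35116 windows of all genes. The STAT-binding letters TTCNNNGAA, which also read the same on both strands, were in 0 of the 46 windows and in 7.66% of all windows. The AP-1 letters TGANTCA, searched on both strands, were in 1 member window, that of PTPN9, against 7.71% of all, and the CArG box of serum response factor in 0, against 1.29%. These are matches of letters only, and the 4 genes with the cyclic AMP element did not share a pattern over the arrays. PTPRU was lowest on the 6 h arrays, DUSP1 was highest on them, and DUSP8 exceeded 20 only on the untreated-labelled array.

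The adhesion receptors PTPRK and PTPRF behaved differently from PTPRS. PTPRK, which binds itself on neighbouring cells, had 483 on the untreated-labelled array, 199 and 447 after 6 h, and 417 and 314 after 18 h. PTPRF, the LAR receptor that associates with cadherin junctions, had 328 on the untreated-labelled array, 146 and 376 after 6 h, and 268 and 274 after 18 h. For both genes the 6 h array of replicate 1 was the lowest of the 5, and its 6 h partner lay 2.25-fold (PTPRK) and 2.58-fold (PTPRF) above it. PTPRU, of the same family as PTPRK, had 151 on the untreated-labelled array, 80 and 94 after 6 h, and 181 and 112 after 18 h. Its 18 h arrays lay above its 6 h arrays and on either side of the untreated-labelled array.

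PTPRN and PTPRN2 are receptor-like proteins of secretory granules in neuroendocrine cells, without activity toward phosphotyrosine. PTPRN had 348 on the untreated-labelled array, 591 and 163 after 6 h, and 181 and 416 after 18 h. Replicates at the same time thus differed by 3.63-fold at 6 h and 2.30-fold at 18 h, more than for any other receptor-type member at both times. The order of the arrays was that of the spread of all intensities on an array, whose SD was 308 on the untreated-labelled array, 410 and 245 after 6 h, and 258 and 350 after 18 h. No other member followed that order, and 122 of the 3784 genes (3.22%) did. The summed intensity of the 13 epithelial markers followed it too, at 12121 on the untreated-labelled array, 16170 and 9025 after 6 h, and 9594 and 13061 after 18 h. The part of this array-wide spread in the PTPRN values was not tested. PTPRN2 had 36 on the untreated-labelled array, 41 and 34 after 6 h, and 35 and 32 after 18 h. In intensity units this was the narrowest range of any member (9), at a low intensity. Its highest array was 1.28-fold above its lowest, against 1.25-fold for PTPN6.

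**Figure D2:**
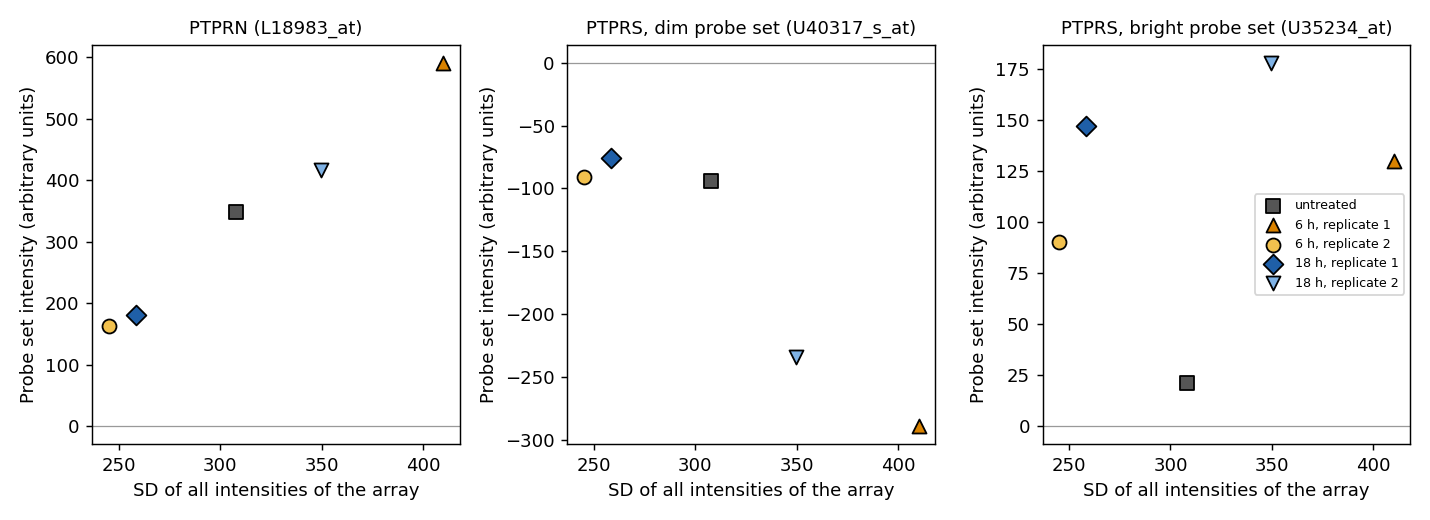
Intensity (arbitrary units) of the PTPRN probe set and of both PTPRS probe sets against the SD of all intensities on the same array, 1 symbol per array. PTPRN climbs from 163 to 591 in the order of the array SD (245 to 410), the dim PTPRS probe set is negative throughout and lowest on the arrays with the widest spread (-289 and -234), and the bright PTPRS probe set does not follow that order.

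PTPRR is a receptor-type phosphatase with a motif that docks on MAP kinases, and both of its probe sets were above 20 on every array. The brighter had 108 on the untreated-labelled array, 129 and 135 after 6 h, and 129 and 58 after 18 h. The second had 94 on the untreated-labelled array, 104 and 109 after 6 h, and 95 and 73 after 18 h. In both, the 6 h arrays lay above the untreated-labelled array, and 18 h replicate 2 was the lowest array.

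The remaining receptor-type members were dim. PTPRA, an activator of Src kinases, had 3 on the untreated-labelled array, -4 and 45 after 6 h, and 66 and 29 after 18 h. It was under 20 on both arrays that oppose their labels and above it on the other 3. PTPRG lay between 5 and 39 and PTPRO between -3 and 26 over the 5 arrays. PTPRH, known from gastrointestinal epithelium, exceeded 20 only on 6 h replicate 2 (33), as did PTPRZ1, a receptor of glia, at 21. PTPRB, the vascular endothelial phosphatase, did so only on the untreated-labelled array (32). Of 7 fibroblast and endothelial markers, VWF and COL1A2 never exceeded 20, whereas COL1A1 did so on every array (43 to 158). THY1 had -17 on the untreated-labelled array, 62 and 75 after 6 h, and 75 and 83 after 18 h. COL3A1 exceeded 20 on 4 arrays, PECAM1 only on 6 h replicate 2 (101) and VIM only on 18 h replicate 1 (27). The summed intensity of the list was 125 on the untreated-labelled array, 197 and 286 after 6 h, and 185 and 301 after 18 h.

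PTPRC (CD45) is the phosphatase of leukocytes, which a T84 culture should lack. It had 38 on the untreated-labelled array, 38 and 25 after 6 h, and 29 and 15 after 18 h. Of 9 leukocyte markers fixed for the check, 7 were measured, and CD14 and ITGAM never exceeded 20. CD2 did so only on 6 h replicate 2 (43), and CD3D on 6 h replicate 2 (34) and 18 h replicate 1 (22). CD79A exceeded 20 on 6 h replicate 1 (42) and 18 h replicate 1 (31). The summed intensity of the 7 was 542 on the untreated-labelled array, 324 and 496 after 6 h, and 440 and 472 after 18 h, of which most came from LYN, a kinase also made by epithelial cells, and from CD3E (168 to 345). Whether these probe sets report their named genes at such levels was not tested.

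Among the non-receptor phosphatases, PTPN5 had the widest difference between arrays. PTPN5, known as STEP, is a brain-enriched phosphatase that docks on MAP kinases. Its intensity was 171 on the untreated-labelled array, 49 and -69 after 6 h, and -86 and -80 after 18 h. The untreated-labelled array was the highest, the 6 h array of replicate 1 was the only treated array above 20, and the others were far below it. Its 18 h values were at least 8.55-fold lower than the value of the untreated-labelled array, counting from 20. Of 6 neuronal markers, NEFL alone exceeded 100 (838 to 1085), while MAP2, NEFM and SYP stayed under 20 on every array. GAP43 exceeded 20 on 4 arrays (18 to 78 over all), and SNAP25 only on 6 h replicate 2 (25). The summed intensity of the neuronal list was 1168 on the untreated-labelled array, 1090 and 962 after 6 h, and 915 and 988 after 18 h.

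PTPN7, a relative of PTPN5 that is best known from blood cells, followed another course. It had 36 on the untreated-labelled array, 66 and 55 after 6 h, and 7 and 38 after 18 h. Both 6 h arrays lay above the other 3. Thus PTPRR, PTPN5 and PTPN7, the classical phosphatases here with a motif for MAP kinases, did not share a direction at 6 h.

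PTPN11 (SHP2) couples receptor tyrosine kinases to Ras and dampens JAK-STAT signalling. It had 92 on the untreated-labelled array, 48 and 55 after 6 h, and 45 and 20 after 18 h, so all 4 treated arrays were lower. Its second probe set had 36 on the untreated-labelled array, 20 and 55 after 6 h, and 21 and 20 after 18 h, and there 6 h replicate 2 was the highest. PTPN6 (SHP1), its relative in blood and epithelial cells, had 93 on the untreated-labelled array, 86 and 79 after 6 h, and 88 and 99 after 18 h, and its arrays lay within 20 units of each other.

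PTPN1 (PTP1B), an enzyme of the endoplasmic reticulum that acts on the insulin receptor and JAK2, was highest on the untreated-labelled array. It had 223 there, 71 and 186 after 6 h, and 182 and 122 after 18 h. Its second probe set had 120 on the untreated-labelled array, 62 and 84 after 6 h, and 69 and 59 after 18 h. In both probe sets the 4 treated arrays were lower, although the 6 h array of replicate 1 was the lowest in the brighter probe set and 18 h replicate 2 in the dimmer.

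PTPN12 (PTP-PEST), which acts on focal adhesion proteins, went the other way. It had 111 on the untreated-labelled array, 169 and 150 after 6 h, and 296 and 182 after 18 h. All treated arrays lay above the untreated-labelled array, and both 18 h arrays lay above both 6 h arrays, but the 18 h arrays were 1.63-fold apart. PTPN3, with FERM and PDZ modules, had 16 on the untreated-labelled array, -33 and 40 after 6 h, and 95 and 21 after 18 h, so its 18 h value rests on replicate 1. Its relatives PTPN4 (59 to 86 over the 5 arrays) and PTPN21 (253 to 325) had ranges of 1.46-fold and 1.28-fold. PTPN9 exceeded 20 only on the untreated-labelled array (23).

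The 2 PTP4A phosphatases, PTP4A1 and PTP4A2, are linked to growth and migration of epithelial cells. PTP4A2 had 319 on the untreated-labelled array, 353 and 294 after 6 h, and 248 and 204 after 18 h. Both 18 h arrays lay below the other 3. PTP4A1 had 141 on the untreated-labelled array, 135 and 111 after 6 h, and 162 and 97 after 18 h, with the 18 h arrays at the 2 ends of the range.

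The MAP kinase phosphatases include nuclear enzymes that are products of inducible genes and cytoplasmic enzymes. DUSP1, an early-response gene induced by stress and growth factors, had 115 on the untreated-labelled array, 237 and 142 after 6 h, and 104 and 97 after 18 h. Both 6 h arrays were above and both 18 h arrays below the untreated-labelled array. DUSP5, a nuclear phosphatase of ERK, had 89 on the untreated-labelled array, 113 and 138 after 6 h, and 207 and 149 after 18 h. Its values were thus ordered by time with no overlap between the groups. DUSP4, another nuclear member, had 42 on the untreated-labelled array, 40 and 60 after 6 h, and 18 and -4 after 18 h, and only its 18 h arrays were under 20.

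DUSP2, first known from lymphocytes, exceeded 20 only on the 6 h array of replicate 1 (119) and lay between -186 and -114 on the others. That array also held the highest values of DUSP1 and of DUSP9 (178, against 94 to 128 elsewhere). DUSP6, the cytoplasmic phosphatase of ERK, had 165 on the untreated-labelled array, 215 and 173 after 6 h, and 245 and 196 after 18 h, and all treated arrays were higher. DUSP7, of the same subgroup, had 54 on the untreated-labelled array, 40 and 90 after 6 h, and 25 and 77 after 18 h, so its replicates differed more than its times.

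At 6 h against the untreated-labelled array, the phosphatases showed no common direction. The log2 change was above 0 for 19 of 34 members and below 0 for 15, with a median of 0.034, while over all genes 46.6% lay above 0 and 49.6% below, and the median was 0. By class, 7 of the 8 MAP kinase phosphatases lay above 0, the exception being DUSP8, with a class median of 0.35. DUSP2 was above the floor only on 6 h replicate 1 and DUSP8 only on the untreated-labelled array. The filter thus fixed the direction of both. The 6 h arrays of DUSP4 (40 and 60 against 42) and DUSP7 (40 and 90 against 54) lay on either side of the untreated-labelled array. In this class, both 6 h arrays lay above it only for DUSP1, DUSP5, DUSP6 and DUSP9. Of the receptor-type members 7 of 14 lay above 0, of the non-receptor members 4 of 10, and of the PTP4A members 1 of 2. PTPRH and PTPRZ1 exceeded 20 only on 6 h replicate 2, so the filter fixed them above 0. PTPRB and PTPN9 exceeded it only on the untreated-labelled array, so the filter fixed them below 0.

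The highest change at 6 h was that of PTPRS, at 2.31 (SE 0.35), with 110 ± 28.3 (SD, n = 2) at 6 h against 21. That value of 21 lies 1 unit above the floor, and the change of PTPRS was 1.10 with values under 50 set to 50 and 0.19 with values under 100 set to 100. The 6 h array of replicate 1, which lacks the interferon response, had 130 for PTPRS and 49 for PTPN5, against 21 and 171 on the untreated-labelled array. DUSP2 (1.26, SE 1.23), PTPN7 (0.73, SE 0.49), DUSP1 (0.67, SE 0.41) and PTPRA (0.57, SE 0.81) came next, and for DUSP2 and PTPRA a single 6 h array carried the value. At the other end PTPN5 had -2.41 (SE 0.64), PTPN1 -0.95 (SE 0.75), PTPN11 -0.83 (SE 0.59), PTPRU -0.79 (SE 0.41) and PTPRK -0.69 (SE 0.63). Without 6 h replicate 1 the change of PTPN1 was -0.26, that of PTPRK -0.11 and that of DUSP1 0.30. DUSP4 had 0.22 (SE 0.34), and without 6 h replicate 2 its change was -0.069. Both 6 h arrays lay above the untreated-labelled array for 8 members, DUSP1, DUSP5, DUSP6, DUSP9, PTPN7, PTPN12, PTPRR and PTPRS, against 20.6% of all genes. They lay below it for 10 members, against 28.0% of all genes, so both shares were near the background of 779 and 1059 genes. The 10 include PTPRB, PTPN9 and DUSP8, which were above the floor only on the untreated-labelled array, so the filter fixed their direction.

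No member passed limma's test at 6 h with Benjamini-Hochberg adjustment over all probe sets (adjusted p = 1 for each member), and 0% of all genes did. At an unadjusted p under 0.05, 1 member was higher (PTPRS) and 2 were lower (PTPN5 and PTPRB), against 1.72% and 1.93% of all genes. PTPRB entered the fit only through the untreated-labelled array and equals 20 on all treated arrays after the floor, so its direction was fixed by the filter and its p is not read as a result at either time. PTPN5 passed when values under 50 were set to 50 (log2 change -1.75, adjusted p = 0.00732, over all alternatives 1.19e-05 to 1), where its 4 treated arrays become equal and the estimated spread vanishes.

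**Figure D3:**
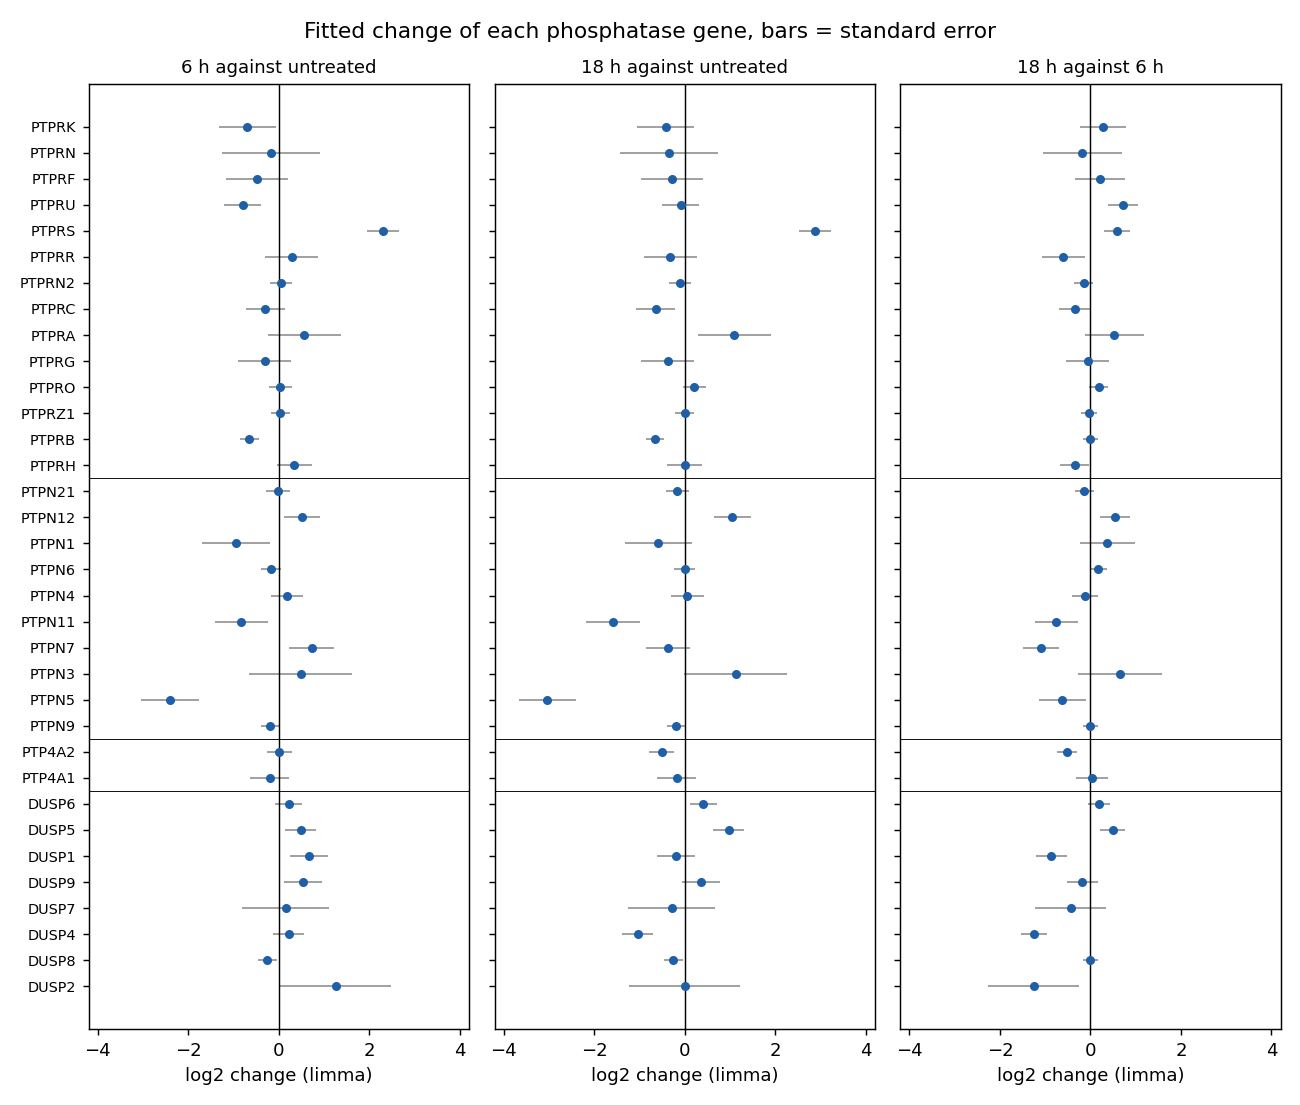
Log2 change of each phosphatase gene with its standard error (bars) from limma, in the 3 comparisons (panels), genes in rows by class. PTPRS (2.31 and 2.89) and PTPN5 (-2.41 and -3.03) lie farthest from 0 against the untreated-labelled array, and no gene passed the adjusted test in any panel.

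At 18 h against the untreated-labelled array, more members lay below than above. Those below included PTPRB, PTPN9 and DUSP8, whose direction was fixed by the filter. The log2 change was below 0 for 21 of 34, above 0 for 10 and at 0 for 3, with a median of -0.18, while over all genes 51.9% lay below 0, 42.7% above, and the median was -0.021. The 3 at 0, DUSP2, PTPRH and PTPRZ1, exceeded 20 only on a 6 h array, so the floor fixed them at 0. Of the MAP kinase phosphatases 3 of 8 lay above 0 (DUSP5, DUSP6 and DUSP9), of the receptor-type members 3 of 14, of the non-receptor members 4 of 10, and of the PTP4A members 0 of 2. Without 18 h replicate 2 the members' median was -0.060, and the replicate block, which enters the replicate number in the fit, gave -0.096.

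PTPRS again had the highest change, 2.89 (SE 0.35), with 162.5 ± 21.9 (SD, n = 2) at 18 h against 21. It was 1.67 with values under 50 set to 50 and 0.69 with values under 100 set to 100. PTPN12 had 1.06 (SE 0.40; 239 ± 80.6 against 111) and DUSP5 had 0.97 (SE 0.34; 178 ± 41.0 against 89). PTPN3 (1.13, SE 1.14) and PTPRA (1.09, SE 0.81) lay under 20 on the untreated-labelled array, so their changes count from the floor. Without 18 h replicate 1 the change of PTPN3 was 0.067 and that of PTPRA 0.51. The lowest changes were those of PTPN5 (-3.03, SE 0.64), PTPN11 (-1.58, SE 0.59), DUSP4 (-1.03, SE 0.34), PTPRB (-0.65, SE 0.21) and PTPRC (-0.64, SE 0.43). DUSP4 and PTPRB were under 20 on both 18 h arrays, so DUSP4 was at least 2.1-fold lower and PTPRB at least 1.6-fold lower. Without 18 h replicate 2 the change of PTPN11 was -1.02 and that of PTPRC -0.38.

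Both 18 h arrays lay above the untreated-labelled array for 8 members, against 24.6% of all genes. These were PTPRS, PTPRA, PTPRO, PTPN3, PTPN12, DUSP5, DUSP6 and DUSP9. PTPRA, PTPRO and PTPN3 were under 20 on the untreated-labelled array, so they were set against the floor and could not lie below it. Their 18 h values were 66 and 29 for PTPRA, 26 and 21 for PTPRO, and 95 and 21 for PTPN3. They lay below it for 15 members (44.1%), against 35.4% of all genes. PTPRB, PTPN9 and DUSP8, counted among them, were above the floor only on the untreated-labelled array, so the filter fixed their direction. The 15 held PTPRB, PTPRC, PTPRF, PTPRG, PTPRK and PTPRN2 of the receptors, PTPN1, PTPN5, PTPN9, PTPN11 and PTPN21 of the non-receptor class, PTP4A2, and DUSP1, DUSP4 and DUSP8.

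At 18 h no member passed limma's test either, and 0% of all genes did (adjusted p = 0.985 for PTPRS and PTPN5 and 1 for the other members). At an unadjusted p under 0.05 PTPRS was higher, and PTPN5 and PTPRB lower, against 2.14% and 2.48% of all genes. PTPN5 passed here as well with values under 50 set to 50 (-1.75, adjusted p = 0.00732), and PTPRB passed without the filter on low values (-0.65, adjusted p = 0.00263, over its alternatives 0.00263 to 1), in both cases with equal values on all treated arrays. The changes at 6 h and 18 h share the untreated-labelled array, so a value in which that array stands alone enters both.

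Over the 4 treated arrays together, 5 members were higher on every one than on the untreated-labelled array, namely PTPRS, PTPN12, DUSP5, DUSP6 and DUSP9, against 10.9% of all genes. Another 7 were lower on every one, namely PTPRK, PTPRB, PTPN1, PTPN5, PTPN9, PTPN11 and DUSP8, against 18.3% of all genes. Both shares of the 34 (14.7% and 20.6%) were close to the background. PTPRB, PTPN9 and DUSP8 in the lower group exceeded 20 on no treated array.

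Each array was also set against the others. The 6 h array of replicate 1 was the highest of the 5 for 9 members (26.5%, against 24.9% of all genes) and the lowest for 5 (14.7%, against 24.9%). 18 h replicate 2 was the lowest for 8 members (23.5%, against 17.5%) and the highest for 2, PTPRS and PTPN6 (5.88%, against 17.1%). 18 h replicate 1 was the highest for 8 (23.5%, against 14.6% of all genes) and the lowest for 3 (8.82%, against 9.46%), so the 18 h arrays differed from each other in these counts. At 18 h the replicates were at least 2-fold apart for 6 members (17.6%, against 12.6% of all genes), and at 6 h for 9 members (26.5%, against 28.6%).

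**Figure D4:**
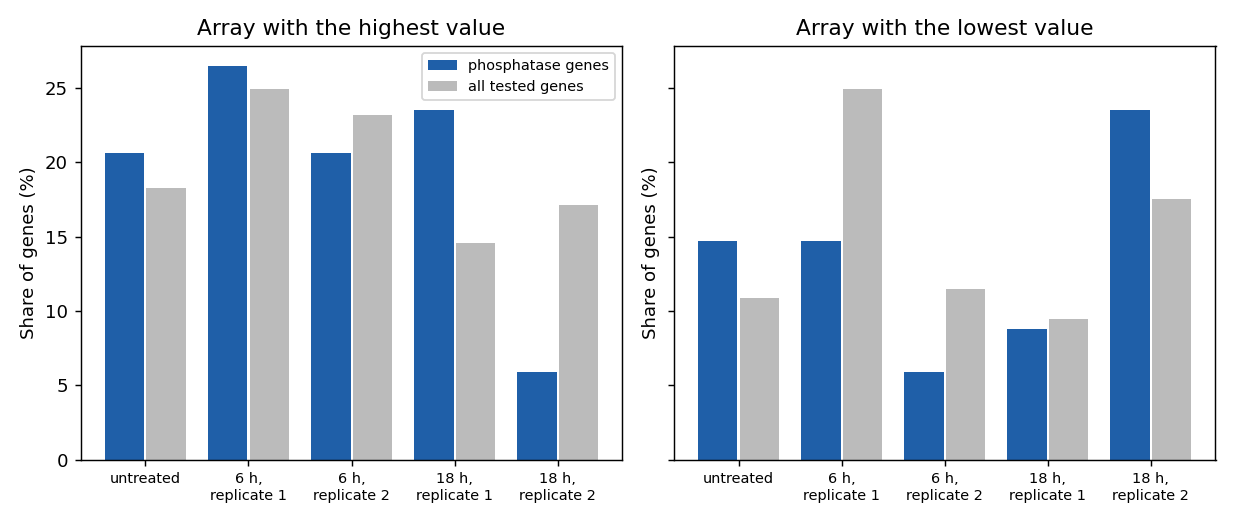
Share of genes (%) for which each array (horizontal axis) held the highest (left panel) or the lowest (right panel) value of the 5, for the 34 phosphatase genes (blue) and all 3784 genes (grey). The 6 h array of replicate 1 is the lowest for 14.7% of the phosphatases and 24.9% of all genes, and 18 h replicate 2 is the highest for 5.88% and 17.1%.

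The comparison of 18 h with 6 h does not use the untreated-labelled array. Members lay on both sides, with 13 above 0, 18 below and 3 at 0, and a median of -0.048, against 46.2% above and 52.0% below over all genes and a median of -0.023. The 3 at 0, PTPRB, PTPN9 and DUSP8, passed the filter only through the untreated-labelled array, so the floor fixed them at 0. DUSP2, PTPRH and PTPRZ1 passed it only through a 6 h array, so the filter fixed them below 0. The highest were PTPRU (0.71, SE 0.33; 146.5 ± 48.8 at 18 h and 87 ± 9.90 at 6 h), PTPN3 (0.65, SE 0.93), PTPRS (0.58, SE 0.29), PTPN12 (0.54, SE 0.33) and PTPRA (0.53, SE 0.66). The lowest were DUSP2 (-1.26, SE 1.00), DUSP4 (-1.25, SE 0.28), PTPN7 (-1.10, SE 0.40), DUSP1 (-0.86, SE 0.34) and PTPN11 (-0.75, SE 0.48). DUSP2 rests on the 6 h array of replicate 1 alone, as does PTPN5 (-0.63, SE 0.52). Without that array the change of DUSP1 was -0.50 and that of PTPRS 0.84, and without 6 h replicate 2 that of PTPRS was 0.31. Without 18 h replicate 1 the change was 0.37 for PTPRU, 0.19 for PTPN12, -0.65 for PTPN7 and -1.32 for PTPN11, and without 18 h replicate 2 it was 0.89 for PTPN12 and -0.19 for PTPN11.

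The arrays of the 2 times did not overlap for 10 members. At 18 h, 5 were higher than at 6 h (DUSP5, PTPN6, PTPN12, PTPRS and PTPRU) and 5 were lower (DUSP1, DUSP4, PTP4A2, PTPN7 and PTPN11), each 14.7% of the 34, against 11.9% and 13.7% of all genes. DUSP4 was at least 2.5-fold lower at 18 h than its 6 h mean of 50 ± 14.1 (SD, n = 2). Set against 6 h replicate 2 alone, the 6 h array that carries the interferon response, both 18 h arrays were higher for 8 members (23.5%, against 24.6% of all genes) and lower for 13 (38.2%, against 38.8%). DUSP5 had 207 and 149 at 18 h against 138 on that array, and DUSP4 had 18 and -4 against 60.

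None passed limma's test (adjusted p = 0.94 for DUSP4, PTPRS and PTPRU), and 0% of all genes did. At an unadjusted p under 0.05 DUSP4 was lower, against 2.11% of all genes, and 0 members were higher, against 2.33%. Without the untreated-labelled array and 6 h replicate 1 the change of PTPRA was -0.037, and without 18 h replicate 1 it was -0.051 and that of PTPN3 was -0.42.

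The partners of these phosphatases were read from lists of kinases and adaptors. Of 14 measured MAP kinases and MAP kinase kinases, 10 exceeded 20, and 0 passed limma's test in either direction in any comparison. At 18 h 5 had a log2 change above 0 against the untreated-labelled array, 4 had one below 0 and 1 was at 0. MAP2K3, the kinase that activates p38, had the largest change (2.09), with 59 on the untreated-labelled array, 52 and 256 after 6 h, and 323 and 201 after 18 h. It was low on both arrays that oppose their labels.

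Src family kinases are held in check by a tyrosine phosphate that CSK adds and that PTPRA and PTPN1 can remove. The list of these kinases, extended by CSK, PTK2 and PTK6, had 7 of 9 measured genes above 20. All 7 lay below 0 at 6 h against the untreated-labelled array, as did 49.6% of all genes. On 6 h replicate 2 alone, CSK (279 against 248) and PTK6 (38 against 36) lay above that array, and the others lay below it. At 18 h, 3 lay above 0, against 42.7% of all genes. For 18 h against 6 h all 7 lay above 0, against 46.2% of all genes, with 0 passing limma's test in any comparison. The list's summed intensity was 851 on the untreated-labelled array, 543 and 779 after 6 h, and 902 and 1115 after 18 h. PTK6, a kinase of differentiating gut epithelium, had 36 on the untreated-labelled array, -67 and 38 after 6 h, and 100 and 244 after 18 h (2.09 at 18 h against the untreated-labelled array).

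Of 17 measured receptor tyrosine kinases, 15 exceeded 20, and 9 lay above 0 and 6 below at 18 h, with 0 passing limma's test. EPHA2 had 36 on the untreated-labelled array, 111 and 42 after 6 h, and 97 and 120 after 18 h. It was thus as high on the 6 h array of replicate 1 as at 18 h. EGFR had 78 on the untreated-labelled array, -7 and 47 after 6 h, and 51 and 29 after 18 h. Among 14 other phosphatases above 20, 5 lay above 0 and 9 below at 18 h, with 0 passing. The serine and threonine phosphatase PPP5C had 184 on the untreated-labelled array, -160 and 187 after 6 h, and 39 and -40 after 18 h. PPP4C had 298 on the untreated-labelled array, 220 and 503 after 6 h, and 522 and 500 after 18 h, low on both arrays that oppose their labels. Only 3 adaptors exceeded 20, GRB2, SHC1 and IRS1, of which 2 lay above 0 at 18 h and 0 passed.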

How the data were processed

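Values were intensities per probe set, deposited by the authors as whole numbers on a linear scale for 7018 probe sets. Between 25.3% and 29.5% of them were negative on an array. Their computation, scaling and background correction are not stated in the sources at hand. The authors' deposited list of induced genes holds intensities as well. Gene names come from the platform annotation (5649 with 1 gene symbol, 321 with several, 1048 with none). A floor of 20 was set, and log2(value + 1) was used. The 5029 probe sets above 20 on at least 1 array were fitted with limma 3.58.1 in R 4.3.3 (lmFit, eBayes) over the 5 arrays (residual df 2, prior df 1.24). P-values were adjusted by Benjamini-Hochberg over all of them, with a threshold of 0.05. The untreated group has 1 array and was assumed to vary like the others, and the number of arrays limits the precision. The fit was tested on simulated data. No pair of arrays were copies (at most 141 equal values of 7018, pairwise correlations 0.832 to 0.936). Deviations of 6 h and 18 h arrays with the same replicate number correlated at -0.29, and the main fit did not use the numbers. With 2 arrays per time and array-wide differences in spread, that value cannot decide whether the cultures were paired. Fitted changes are given for PTPRS, PTPN5, DUSP4 and the 5 highest and 5 lowest members of each comparison. Kinase lists are given by counts and by the 1 or 2 genes with the largest change at 18 h. The members, lists and tests were chosen with earlier results of these data known.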

Additional observations from a re-analysis of the deposited data

Results flagged for a closer look

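DUSP1 lay above the untreated-labelled array on both 6 h arrays (237 and 142, against 115) and below it on both 18 h arrays (104 and 97). The change of 18 h against 6 h was -0.86 on the log2 scale (SE 0.34), and limma's test of that difference did not pass (adjusted p = 0.94). It was -0.50 without 6 h replicate 1 and -1.23 without 6 h replicate 2. The higher 6 h value came from the array of replicate 1, whose interferon genes oppose its label. Against the single untreated-labelled array the fitted change was 0.67 (SE 0.41) at 6 h and -0.19 (SE 0.41) at 18 h, and the 6 h change was 0.30 without 6 h replicate 1.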

How the results depend on the processing

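No probe set was called in any comparison under the floor of 20, nor without an added 1, under a floor of 0, a minimum mean of 50, quantile normalization, median centring, a spread trend, either replicate block, or with any array left out (0 to 0 calls). With values under 50 set to 50 there were 43 calls at 6 h and 47 at 18 h against the untreated-labelled array, with values under 100 set to 100 there were 55 and 58 (and 6 for 18 h against 6 h), and without the filter on low values there were 100 and 97 (and 1). In 40, 41, 52, 53, 92 and 91 of these, the arrays of each treated time had equal values after the floor, so the spread was estimated as 0. Between 1 and 3 calls per comparison against the untreated-labelled array were probe sets of these phosphatases. The members' median of 0.034 at 6 h was -0.090 with a floor of 0, 0 with floors of 50 and 100 or without the filter, 0.068 with median centring, 0.063 with the replicate block and 0.0014 with the crossed block. The median of -0.18 at 18 h was 0 with floors of 50 and 100, -0.084 without the filter and -0.096 with the replicate block. The median of -0.048 for 18 h against 6 h was 0 with floors of 50 and 100 or without the filter, 0.034 with a minimum mean of 50, -0.0048 with quantile normalization, -0.12 with every probe set counted, and -0.0095 without both arrays that oppose their labels. With 1 array left out the medians ran 0 to 0.034 at 6 h, -0.18 to -0.060 at 18 h and -0.049 to 0 for 18 h against 6 h. The direction turned for DUSP4 at 6 h without 6 h replicate 2 (-0.069, and up to 0.50 with other arrays left out), for PTPRA at 6 h with the crossed block (-0.0070), and for 18 h against 6 h for PTPN3 (-0.42 without 18 h replicate 1, and up to 1.71) and PTPRA (-0.037 without 6 h replicate 1 or both arrays, -0.051 without 18 h replicate 1, and up to 1.11). The cause was not tested. The crossed block, which swaps the numbers of the 18 h arrays, and the setting without both arrays were chosen after seeing the data. Over the 32 changes given for named genes, 5 results under another setting passed the test where the fit with both the floor of 20 and the filter did not. These were PTPN5 at 6 h and 18 h with floors of 50 and 100, and PTPRB at 18 h without the filter.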

Other observations

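The authors' deposited table of induced genes holds 2 probe sets of these phosphatases among the 97 used here. In all 97 its 4 treated columns match the value table exactly, but its control column matches the untreated column in only 3. PTPN3 stands at place 37 among the 97 probe sets used of the authors' deposited table. Its control value there is 4, while the value table has 16 on the untreated-labelled array. Its 18 h mean of 58 is 14.5 times that control value, which lies under 20, and rests on 95 on replicate 1 and 21 on replicate 2. The dimmer probe set of PTPN11 stands at place 61 among these 97, with 18 h values of 21 and 20 against a control value of 2. In the value table the untreated-labelled array has 36 for it, above both 18 h arrays, so the direction of this probe set depends on which control is read. The control value of 2 lies under 20, so 18 h values of 21 and 20 leave almost no change against it once the floor is set. The brighter probe set of PTPN11, which is not among these 97, had 45 and 20 at 18 h against 92 on the untreated-labelled array.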
